A study of Mus musculus with 16 samples.

Results

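The Rab GTPases, SNARE proteins and exocytosis partners described here were 116 of the 21442 genes in the count table. Members were taken by symbol alone: numbered Rab, syntaxin (Stx), syntaxin-binding (Stxbp), VAMP, synaptotagmin (Syt) and synaptotagmin-like (Sytl) genes, Snap23, Snap25, Snap29 and Snap47, and Unc13a, Unc13b and Unc13d. The symbol rule uses no measured value. Of the 116 members, 96 had enough reads to be tested, and the other 20 held between 3 and 102 counts over all 16 libraries together.

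RNA was sequenced from cells of the distal colon of mice 6–8 weeks old, sorted by the mCherry signal of the reporter strain RedMUC298trTg against a C57Bl6 mouse without signal. Group WT_GC held mCherry-positive cells, labelled goblet cells, and group WT_EC the mCherry-negative remainder of the epithelium, labelled colonocytes, both from RedMUC298trTg. Groups SpdefKO_GC and SpdefKO_EC held the same sorted fractions from RedMUC298trTg_SpdefKO mice, described as Spdef -/-. Each group had 4 libraries, and all 4 groups carried the reporter. The promoter of the reporter, the form of the Spdef allele and any pooling of animals are not stated in the labels. RNA of the GC fractions was purified on MinElute columns and that of the EC fractions on Mini columns, so fraction and column cannot be told apart.

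Goblet cells store mucin in large granules that leave by regulated exocytosis, and they also secrete continuously. Rab proteins are small GTPases that mark the membranes on the route and recruit effectors. SNARE proteins on the vesicle (VAMP) and target membrane (syntaxin, SNAP) form the bundle that fuses the membranes, with Stxbp, Unc13, synaptotagmin and Sytl proteins acting in docking, priming and calcium sensing.

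Promoters of 3 members with a large genotype difference in the GC fraction are given first, to show the sequence beside the values that follow. Syt6 and Rab23 fell in SpdefKO_GC and Rab3c rose. The windows run from 250 bases before to 50 after the annotated start (RefSeq, GRCm38.p6), 5′ to 3′ on the gene's strand; that of Rab3c belongs to an annotated start inside the gene's full span, which begins further upstream. Capitals mark CCGGAT or its complement ATCCGG, a 6-base core in the style bound by ETS factors, the family to which Spdef belongs.
Syt6 (chr3:103574995-103575294, plus strand): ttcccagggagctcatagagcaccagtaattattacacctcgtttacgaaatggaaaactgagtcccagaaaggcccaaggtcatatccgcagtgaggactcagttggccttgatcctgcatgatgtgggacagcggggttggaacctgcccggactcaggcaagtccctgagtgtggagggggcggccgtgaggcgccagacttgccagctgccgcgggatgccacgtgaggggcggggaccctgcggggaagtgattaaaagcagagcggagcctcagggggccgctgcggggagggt
Rab23 (chr1:33719646-33719945, plus strand): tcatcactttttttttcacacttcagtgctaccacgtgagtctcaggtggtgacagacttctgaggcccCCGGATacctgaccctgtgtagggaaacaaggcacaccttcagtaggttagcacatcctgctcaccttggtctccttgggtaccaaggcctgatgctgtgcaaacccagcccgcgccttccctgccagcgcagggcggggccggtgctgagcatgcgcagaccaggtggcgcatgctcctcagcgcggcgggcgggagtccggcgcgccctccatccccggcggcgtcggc
Rab3c (chr13:110280157-110280456, minus strand): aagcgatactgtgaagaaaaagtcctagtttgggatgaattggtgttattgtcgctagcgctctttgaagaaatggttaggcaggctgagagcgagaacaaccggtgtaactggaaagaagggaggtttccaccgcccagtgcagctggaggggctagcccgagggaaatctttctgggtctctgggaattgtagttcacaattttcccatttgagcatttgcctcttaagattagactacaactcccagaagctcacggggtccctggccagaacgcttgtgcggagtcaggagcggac
Of these windows, that of Rab23 held 1 match and those of Syt6 and Rab3c none. Over the 115 windows of the 92 member genes that had an entry, 8 held the core (6.96%), against 1984 of 32851 windows of all genes (6.04%). The letters CAGATG or CATCTG, an E-box of the kind bound by basic helix-loop-helix factors, stood in 11 member windows (9.57%) and in 5635 of all windows (17.2%). Both motifs were searched on both strands, they do not overlap each other in sequence, and a match is a description only.

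Libraries held 10085637–17111987 counts assigned to genes, and 15108–18056 genes were detected. Spdef itself was listed at 2.54, 1.82, 3.77 and 2.64 CPM in WT_EC, 280.0, 306, 281 and 315 in WT_GC, 2.04, 1.89, 3.51 and 1.15 in SpdefKO_EC and 369, 373, 446 and 294 in SpdefKO_GC. CPM are counts scaled to a common library total after TMM adjustment. In the GC fraction, where the gene was mostly read, Spdef was no lower in the libraries labelled SpdefKO (log2 difference 0.33 ± 0.14, adjusted p = 0.116; higher with limma-voom, 0.0479, with only the compared groups, 0.0439, and without SpdefKO_GC 19, 0.0459). In the EC fraction the difference did not pass (log2 difference -0.28 ± 0.28, adjusted p = 0.559). Whether these counts lie outside a deleted part was not tested, and genotype below means the label. Summed CPM of 10 goblet markers was 48270–55147 in WT_GC and 53400–65873 in SpdefKO_GC, against 550–737 in WT_EC and 511–555 in SpdefKO_EC. The EC fractions carried the absorptive markers (10 genes, 9084–11537 CPM, against 502–1128 in the GC fractions). In bulk samples fewer cells of a type and less RNA per cell cannot be told apart.

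In WT mice 6 of 7 tested granule Rabs and 3 of 4 tested Sytl genes were higher in goblet cells, while 4 of 6 tested plasma membrane syntaxins were lower. Of the 96 tested members 30 were higher (background 31.0% of 12915 genes tested) and 42 lower (background 30.2%) in WT_GC than in WT_EC, at a Benjamini-Hochberg adjusted p under 0.05. That is 31.2% and 43.8% of the members. Their median log2 difference was -0.04, against 0.05 over all genes tested. Libraries of the groups did not overlap for 31 members that were higher in WT_GC and 40 that were lower (background 30.1% and 29.3%). In either direction 75.0% of tested members were called, against 61.2% of all genes tested. The split depended on scaling: with upper-quartile factors 34 members were higher and 36 lower. Over all genes 58.4% of calls were then higher, against 50.7% with TMM factors.

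**Figure D1:**
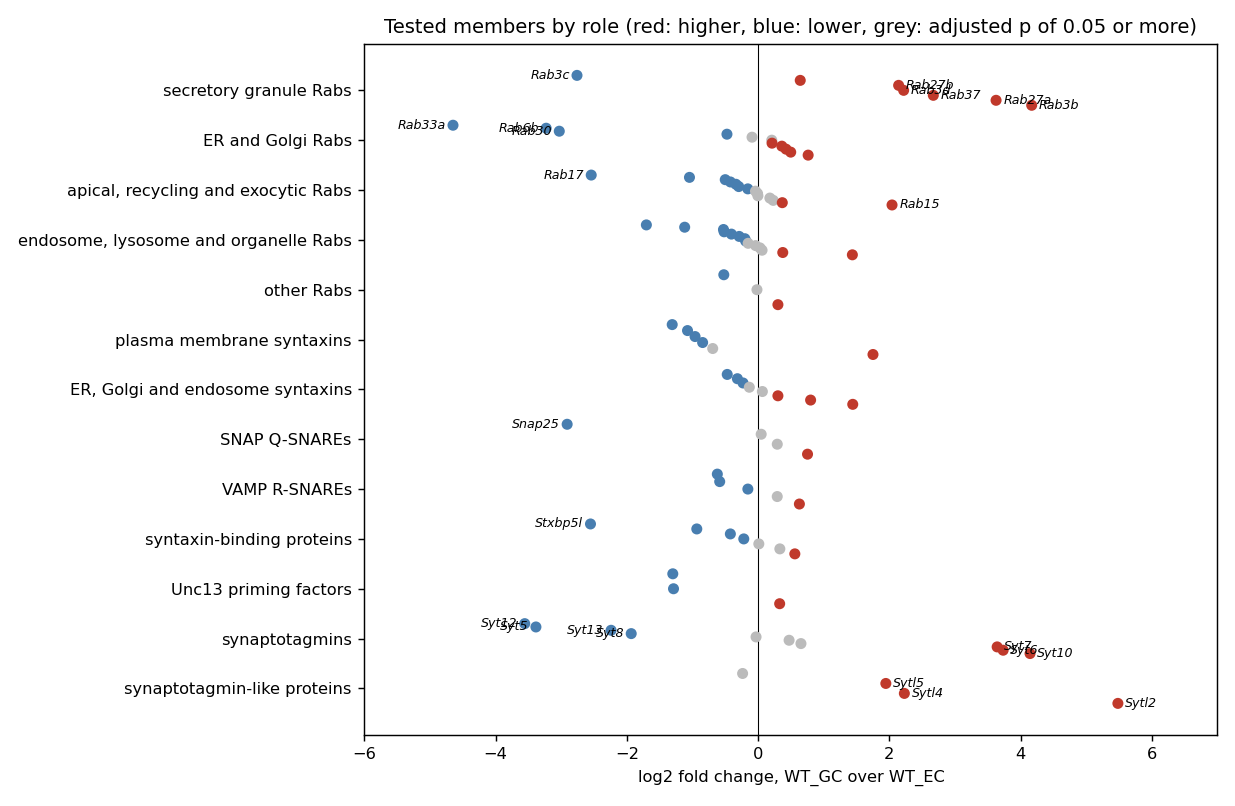
Log2 fold change of each tested member between WT_GC and WT_EC (x axis, log2 scale, n = 4 libraries per group), arranged by role (y axis) and coloured by call. Sytl2 reaches furthest to the right, at 5.48, and the plasma membrane syntaxins sit left of 0 except Stx19.

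Sytl2, a Rab27 effector that tethers granules at the apical membrane, showed the largest rise of all members. It lies at chromosome 7, 90302211–90410719 (GRCm38, as all positions here). The WT_EC libraries stood at 9.32, 9.40, 8.9996 and 10.6 CPM and the WT_GC libraries at 469, 399, 415 and 431 CPM. The difference was 44.7-fold (log2 difference 5.48 ± 0.20, adjusted p = 3.28e-13; ± is the standard error of the fit), and the groups were far apart. Sytl4 (chromosome X, 133936385–133981821), another Rab27 effector, had 11.03, 11.5, 12.3 and 15.0 CPM in WT_EC, against 57.6, 56.6, 63.6 and 55.2 in WT_GC, 4.69-fold higher (log2 difference 2.23 ± 0.12, adjusted p = 8.51e-12). Sytl1, by contrast, stood at 83.1 ± 4.30 CPM in WT_EC and 70.5 ± 2.28 CPM in WT_GC (log2 difference -0.24 ± 0.12, adjusted p = 0.0931), and passed with only the compared groups in the fit (adjusted p = 0.00211) or without WT_EC 14 (0.048). The make-up of the Sytl family therefore differed: counted per kilobase of exon, Sytl1 made up 89.3 ± 0.846% (SD, n = 4) of it in WT_EC and 38.4 ± 1.34% in WT_GC. Sytl2 went from 1.86 ± 0.107% to 42.1 ± 1.95%.

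Rab27a and Rab27b, the GTPases that those effectors bind on secretory granules, were both higher in goblet cells. Rab27a (chromosome 9, 73044810–73097623) had 11.2, 9.88, 10.5 and 10.5 CPM in WT_EC, against 136, 114, 146 and 125 in WT_GC, 12.3-fold higher (log2 difference 3.63 ± 0.10, adjusted p = 1.04e-15). Rab27b was at 54.1, 52.2, 63.1 and 48.2 CPM and 250.2, 219, 247 and 244 CPM, 4.41-fold higher (log2 difference 2.14 ± 0.09, adjusted p = 1.45e-13). All 4 goblet libraries lay above all 4 WT_EC libraries for each gene. Per kilobase, Rab27a made up 34.9 ± 2.64% of the pair in WT_EC and 59.8 ± 1.53% in WT_GC, with no overlap of the libraries.

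Rab3d, a granule Rab of exocrine cells, was the leading Rab3 gene in both fractions. It lies at chromosome 9, 21907491–21918199 and had 97.1, 82.4, 98.6 and 88.8 CPM in WT_EC, against 409, 428, 442 and 428 in WT_GC, 4.65-fold higher (log2 difference 2.22 ± 0.08, adjusted p = 2.21e-14). Per kilobase it held 88.3 ± 1.69% of Rab3 reads in WT_EC and 94.6 ± 0.631% in WT_GC. Rab3b rose from 0.380, 0.0790, 0.363 and 0.661 CPM to 7.59, 5.30, 7.50 and 7.30 CPM (log2 difference 4.17 ± 0.31, adjusted p = 7.83e-10), and Rab3a from 5.28 ± 1.25 to 8.29 ± 0.821 CPM (log2 difference 0.64 ± 0.17, adjusted p = 0.00328). Exons of Rab3a and Rab3b overlap another gene on the opposite strand, so their values are uncertain, since nothing says whether the counting used strand. Rab3c, best known from neurons and endocrine cells, went the other way, from 4.82, 3.79, 6.89 and 5.21 CPM in WT_EC to 0.533, 1.28, 0.572 and 0.534 CPM in WT_GC (log2 difference -2.76 ± 0.27, adjusted p = 3.70e-08). Rab37, a granule Rab first described in mast cells, was at 0.380, 0.395, 0.581 and 0.734 CPM and 3.06, 2.46, 3.24 and 4.89 CPM (log2 difference 2.67 ± 0.28, adjusted p = 1.20e-07). Rab26 held 3 counts in WT_EC and 6 in WT_GC and was not tested.

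Rab15 (chromosome 12, 76797960–76822759), placed among the recycling Rabs, was also higher in goblet cells. Its libraries had 75.2, 65.6, 92.8 and 75.0 CPM in WT_EC, against 314, 312, 337 and 306 in WT_GC, 4.11-fold higher (log2 difference 2.04 ± 0.09, adjusted p = 2.10e-13); it was named for this change after its values were seen. Among the 14 tested apical, recycling and exocytic Rabs, 2 were higher and 7 lower, with a median of -0.10. Rab17, a Rab of polarised epithelia, had 15.5, 14.8, 14.7 and 15.9 CPM in WT_EC, against 3.73, 1.84, 2.10 and 2.85 in WT_GC (log2 difference -2.54 ± 0.28, adjusted p = 3.81e-07). The 11 tested ER and Golgi Rabs held 5 higher and 4 lower. The 5 were Rab1, Rab1b, Rab2a, Rab18 and Rab33b, each by less than 2-fold. The call of Rab18 was lost with DESeq2, with only the compared groups, and without WT_EC 10, 12 or 14 or WT_GC 9, 11 or 18 (adjusted p 0.0553–0.1905). Rab1b went from 72.6 ± 4.21 to 93.3 ± 5.66 CPM (log2 difference 0.36 ± 0.07, adjusted p = 9.38e-05). Rab6b, a Golgi Rab of neurons and some epithelia, dropped from 2.98, 3.56, 3.77 and 3.96 to 0.200, 0.335, 0.254 and 0.801 CPM (log2 difference -3.23 ± 0.39, adjusted p = 7.38e-07). The other two that were more than 2-fold lower, picked out after their values were seen, were Rab30 (1.57 ± 0.222 and 0.196 ± 0.108 CPM) and Rab33a. Rab33a had 81 counts in WT_EC and 3 in WT_GC, a ratio of 27.4 with an exact 95% counting interval of 9.05–136. Counting intervals here rest on reads pooled over the 4 libraries of a group and leave out the spread between libraries.

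The 14 tested Rabs of endosomes, lysosomes and related organelles held 2 higher and 8 lower, with a median of -0.20. Rab32, which acts in the making of lysosome-related organelles, was at 22.4 ± 2.497 CPM in WT_EC and 28.99 ± 1.5003 CPM in WT_GC (log2 difference 0.38 ± 0.11, adjusted p = 0.00775). Its close relative Rab38 was at 0.507, 0.711, 0.726 and 0.661 and 2.46, 1.45, 1.40 and 1.78 CPM (log2 difference 1.44 ± 0.30, adjusted p = 0.000374); its group means stayed below the 2 CPM set as the minimum for naming genes by size of change. Rab31, a Rab of the trans-Golgi and endosomes, went from 26.8 ± 2.33 to 8.28 ± 1.18 CPM (log2 difference -1.70 ± 0.23, adjusted p = 4.76e-06).

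**Figure D2:**
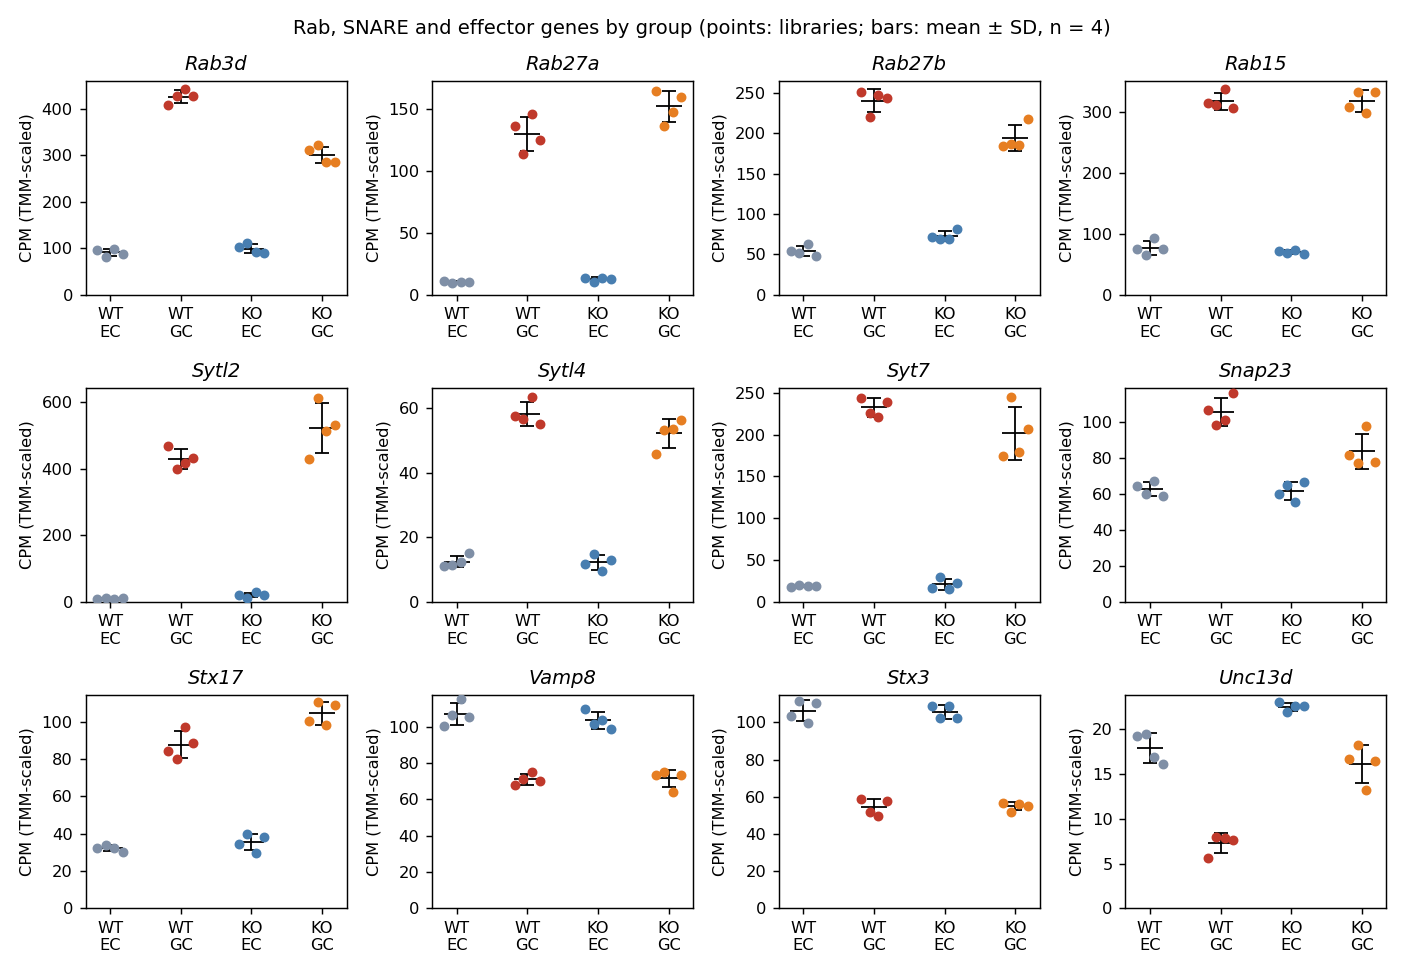
TMM-scaled CPM (y axis, from 0) of 12 members in the 4 groups (x axis; KO is the SpdefKO label). Points are libraries and bars the mean ± SD of 4; Rab3d, Rab27b and Snap23 drop in SpdefKO_GC and stay above both EC groups, whereas Unc13d rises there.

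Target-membrane SNAREs changed in unlike directions. Snap23, the SNAP protein of non-neuronal secretory cells, had 64.5, 59.9, 67.4 and 58.7 CPM in WT_EC, against 107, 98.3, 101 and 116 in WT_GC, 1.68-fold higher (log2 difference 0.75 ± 0.09, adjusted p = 3.29e-07). Stx3, the apical syntaxin, was at 103, 111, 99.9 and 111 CPM and 59.1, 52.0, 49.8 and 57.5 CPM, 1.95-fold lower in goblet cells (log2 difference -0.96 ± 0.07, adjusted p = 3.14e-10). Neither pair of groups overlapped. Of the 6 tested plasma membrane syntaxins, 4 were lower (Stx1a, Stx2, Stx3 and Stx4a) and 1 higher. The higher one was Stx19, a syntaxin without a membrane-spanning anchor, at 2.92, 2.77, 3.05 and 3.45 CPM in WT_EC and 12.2, 9.49, 8.20 and 11.3 CPM in WT_GC (log2 difference 1.75 ± 0.20, adjusted p = 3.30e-07). Stx1a, the neuronal and endocrine form, stood at 1.92 ± 0.316 and 0.917 ± 0.141 CPM (log2 difference -1.08 ± 0.23, adjusted p = 0.000522). Stx17, a syntaxin of autophagosomes and the ER, was at 32.3, 34.1, 32.4 and 30.3 CPM and 84.5, 80.1, 97.2 and 88.7 CPM (log2 difference 1.44 ± 0.09, adjusted p = 4.26e-11), the largest rise of the 8 tested ER, Golgi and endosome syntaxins (3 higher, 3 lower).

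On the vesicle side, Vamp8, the R-SNARE of exocrine granules, had 101, 107, 115 and 105 CPM in WT_EC, against 68.1, 71.3, 75.3 and 70.0 in WT_GC, 1.501-fold lower in goblet cells (log2 difference -0.59 ± 0.07, adjusted p = 2.84e-07). Vamp2, the synaptic R-SNARE, was at 10.1 ± 1.20 and 15.6 ± 2.24 CPM (log2 difference 0.63 ± 0.14, adjusted p = 0.000827) and was the 1 of 5 tested VAMP genes that was higher. Vamp3 and Vamp4 were lower as well, each by less than 2-fold; the call of Vamp3 was lost with upper-quartile factors, without the filter, and without WT_EC 14 or WT_GC 9 or 13 (adjusted p 0.0682–0.334). Stxbp2, the Munc18 partner of Stx3, stood at 92.2, 100.4, 92.7 and 98.8 CPM and 92.0, 98.7, 98.8 and 97.3 CPM, with overlapping libraries (log2 difference 0.01 ± 0.08, adjusted p = 0.915). Of 7 tested Stxbp genes 1 was higher and 4 lower.

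Among calcium sensors and priming factors, Syt7 is a high-affinity sensor of slow exocytosis. It lies at chromosome 19, 10388802–10453181 and had 17.4, 19.9, 18.7 and 18.6 CPM in WT_EC, against 244, 226, 221 and 239 in WT_GC, 12.5-fold higher (log2 difference 3.64 ± 0.17, adjusted p = 6.27e-12). Syt6 (chromosome 3, 103575245–103645567) was at 0.444, 0.158, 0.653 and 0.441 CPM and 8.06, 4.02, 4.89 and 6.41 CPM (log2 difference 3.73 ± 0.36, adjusted p = 2.92e-08). Goblet libraries lay above all WT_EC libraries for both. Syt10, named after its values were seen, had 2 counts in WT_EC and 47 in WT_GC, a ratio of 23.2 with a counting interval of 6.06–197. Syt5, Syt8, Syt12 and Syt13 were lower, each below 1 CPM in WT_GC: Syt5 went from 2.73 ± 0.287 to 0.270 ± 0.148 CPM (log2 difference -3.39 ± 0.30, adjusted p = 8.39e-09) and Syt13 from 3.88 ± 0.568 to 0.800 ± 0.141 CPM (log2 difference -2.24 ± 0.31, adjusted p = 4.25e-06). Syt12 stood at 3.48 ± 0.933 and 0.301 ± 0.160 CPM, with an opposite-strand overlap that leaves its value uncertain. Unc13b, the priming factor also known as Munc13-2, was at 85.5 ± 3.67 and 107 ± 8.39 CPM (log2 difference 0.33 ± 0.07, adjusted p = 0.000744). Unc13d, or Munc13-4, a Rab27 partner in blood cells, had 19.2, 19.4, 16.8 and 16.2 CPM in WT_EC, against 5.60, 7.98, 7.82 and 7.65 in WT_GC (log2 difference -1.30 ± 0.12, adjusted p = 1.98e-08).

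Ordered by CPM per kilobase of exon, the members most abundant in WT_GC were Rab2a at 140.1 ± 5.43, Rab3d at 102 ± 3.23 and Rab1 at 94.7 ± 1.30 (SD, n = 4). Rab25 (79.9 ± 0.869), Rab6a (73.7 ± 13.03) and Rab15 (68.8 ± 2.95) followed, and neither Rab25 nor Rab15 differed from Rab6a beyond the spread of Rab6a, whose exons overlap a gene on the other strand. Rab10 stood at 57.9 ± 3.05 and Rab5c at 53.9 ± 2.44. The top of the list thus joined Rabs of the ER, Golgi and endosomes with the granule Rab3d and with Rab25, Rab15 and Rab10, placed among the apical, recycling and exocytic Rabs.

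Genes of the same route outside the symbol rule were read from 4 lists. Their counts stand beside a background of 31.0% of all genes tested higher and 30.2% lower in WT_GC than in WT_EC, and no list was tested as a set. Of 34 tested Rab regulators and effectors 13 were higher and 12 lower in WT_GC than in WT_EC. Myrip, which links Rab27 to myosin, was at 0.0705 CPM in WT_EC (4 counts) and 8.34 ± 1.51 CPM in WT_GC (log2 difference 6.69 ± 0.37, adjusted p = 1.25e-11). Exph5 (Slac2-b), a further Rab27 effector, rose from 143 ± 16.3 to 294 ± 36.4 CPM (log2 difference 1.04 ± 0.17, adjusted p = 7.50e-05). Myo5b, the myosin of Rab11 recycling endosomes, was at 524 ± 40.1 and 265 ± 8.58 CPM (log2 difference -0.98 ± 0.08, adjusted p = 1.62e-09), and Myo7a at 30.2 ± 2.33 and 9.63 ± 0.785 CPM (log2 difference -1.64 ± 0.09, adjusted p = 2.03e-11). Of 24 other SNAREs and SNARE recycling factors 13 were higher and 2 lower, with a median of 0.27. The ER-Golgi SNAREs Bet1 (21.2 to 62.8 CPM, log2 difference 1.57 ± 0.13, adjusted p = 6.31e-09) and Sec22b (34.8 to 85.1 CPM, log2 difference 1.29 ± 0.07, adjusted p = 1.76e-11) rose most. The exocyst, which tethers vesicles at the plasma membrane, had 1 of 11 tested genes higher and 2 lower, all by less than 2-fold. Of 18 other calcium and priming factors 9 were higher and 7 lower, with Sv2c up (0.567 to 5.35 CPM, log2 difference 3.19 ± 0.45, adjusted p = 1.10e-05) and Cadps down (4.51 to 0.689 CPM, log2 difference -2.68 ± 0.30, adjusted p = 2.71e-07).

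With the SpdefKO label, the GC fraction had less Syt6, Rab3d, Rab27b and Snap23 RNA and more Unc13d RNA. It also had more RNA of several members known from neurons and endocrine cells. In SpdefKO_GC against WT_GC, 11 of 96 members were higher (background 10.4%) and 14 lower (background 11%; 21.4% in either direction), that is 11.5% and 14.6%. Their median was -0.04 against 0.00 over all genes. Libraries did not overlap for 10 members that were higher and 17 that were lower (background 11.6% and 13.6%). This comparison shares the WT_GC libraries with the one above. Of 49 tested Rabs 9 fell and 2, Rab3c and Rab37, rose. Among the falls, the calls of Rab5b, Rab11b, Rab18 and Rab24 were each lost when certain single libraries were left out. Without SpdefKO_GC 3, 9 members in all were lower in place of 14.

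Syt6 fell most. Its SpdefKO_GC libraries stood at 0.459, 0.695, 0.848 and 1.21 CPM, all below the lowest WT_GC library at 4.02 CPM, a 7.30-fold drop (log2 difference -2.87 ± 0.32, adjusted p = 3.44e-06). Rab3d was at 311, 321, 286 and 286 CPM in SpdefKO_GC, 1.42-fold lower than in WT_GC (log2 difference -0.50 ± 0.08, adjusted p = 0.000108), and no libraries overlapped. Rab27b was at 184, 187, 186 and 218 CPM (log2 difference -0.31 ± 0.08, adjusted p = 0.0117), also without overlap. Snap23 was at 81.9, 77.1, 97.7 and 77.9 CPM (log2 difference -0.33 ± 0.08, adjusted p = 0.00865), its highest library just under the lowest of WT_GC. Rab23, a Rab of ciliary and Hedgehog signalling, had 7.46, 6.92, 7.69 and 6.94 CPM in WT_GC, against 4.36, 3.89, 4.10 and 3.77 with the SpdefKO label (log2 difference -0.84 ± 0.12, adjusted p = 7.36e-05). Rab1b, which acts between ER and Golgi, was at 78.2, 77.8, 71.6 and 73.1 CPM against 93.3 CPM (log2 difference -0.31 ± 0.07, adjusted p = 0.00227).

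Several other granule members did not pass the test. Rab27a was at 165, 137, 148 and 159 CPM (log2 difference 0.22 ± 0.09, adjusted p = 0.0722), Sytl2 at 428, 612, 514 and 532 CPM (log2 difference 0.28 ± 0.16, adjusted p = 0.213), Sytl4 at 52.2 ± 4.52 CPM (log2 difference -0.16 ± 0.11, adjusted p = 0.335) and Syt7 at 201 ± 32.2 CPM (log2 difference -0.21 ± 0.15, adjusted p = 0.349). The libraries of each overlapped with WT_GC. Rab27a passed without WT_GC 13 (adjusted p = 0.0409) or SpdefKO_GC 5 (0.0384), and Sytl2 with only the compared groups in the fit (0.0437). Rab27a made up 68.4 ± 2.07% of the Rab27 pair per kilobase in SpdefKO_GC, above the 59.8 ± 1.53% of WT_GC, and the libraries did not overlap. Sytl1 was at 46.7, 69.2, 44.7 and 55.5 CPM (log2 difference -0.39 ± 0.12, adjusted p = 0.0279), with 1 library inside the WT_GC range; the call was lost without WT_GC 13 or 18 or SpdefKO_GC 3, 7 or 19 (adjusted p 0.0529–0.0868). Rab3b, at 6.34 ± 1.68 CPM (log2 difference -0.12 ± 0.21, adjusted p = 0.718), and Rab3a, at 6.43 ± 1.11 CPM (log2 difference -0.37 ± 0.17, adjusted p = 0.129), did not pass. Stx3 (55.0 ± 2.06 CPM), Vamp8 (71.5 ± 4.90 CPM), Vamp2 (14.7 ± 2.14 CPM), Stxbp2 (107 ± 12.03 CPM) and Unc13b (93.9 ± 9.42 CPM) did not pass either, with log2 differences between -0.19 and 0.15. Without SpdefKO_GC 7, Stxbp2 (adjusted p = 0.0321) and Unc13b (0.021) passed.

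Rab38 and Syt3 fell in both fractions with the SpdefKO label, and their libraries overlapped in neither. Rab38 was at 0.631, 0.765, 0.919 and 0.498 CPM in SpdefKO_GC (log2 difference -1.32 ± 0.29, adjusted p = 0.00326) and 0.255, 0.196, 0.130 and 0 CPM in SpdefKO_EC (log2 difference -1.96 ± 0.46, adjusted p = 0.00982). Syt3, a calcium sensor found on endosomal and synaptic membranes, was at 1.13, 1.23, 1.21 and 0.890 and 0.230, 0.417, 0.141 and 0.213 CPM in the GC fraction (log2 difference -2.14 ± 0.34, adjusted p = 0.000186) and at 0.887, 0.711, 0.798 and 0.441 and 0.191, 0.196, 0.0650 and 0.104 CPM in the EC fraction (log2 difference -2.26 ± 0.42, adjusted p = 0.00192). Rab38 and Syt3 were picked out after their values were seen. The test of the difference between fractions did not pass for these genes (interaction adjusted p = 0.524 for Rab38 and 0.930 for Syt3).

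**Figure D3:**
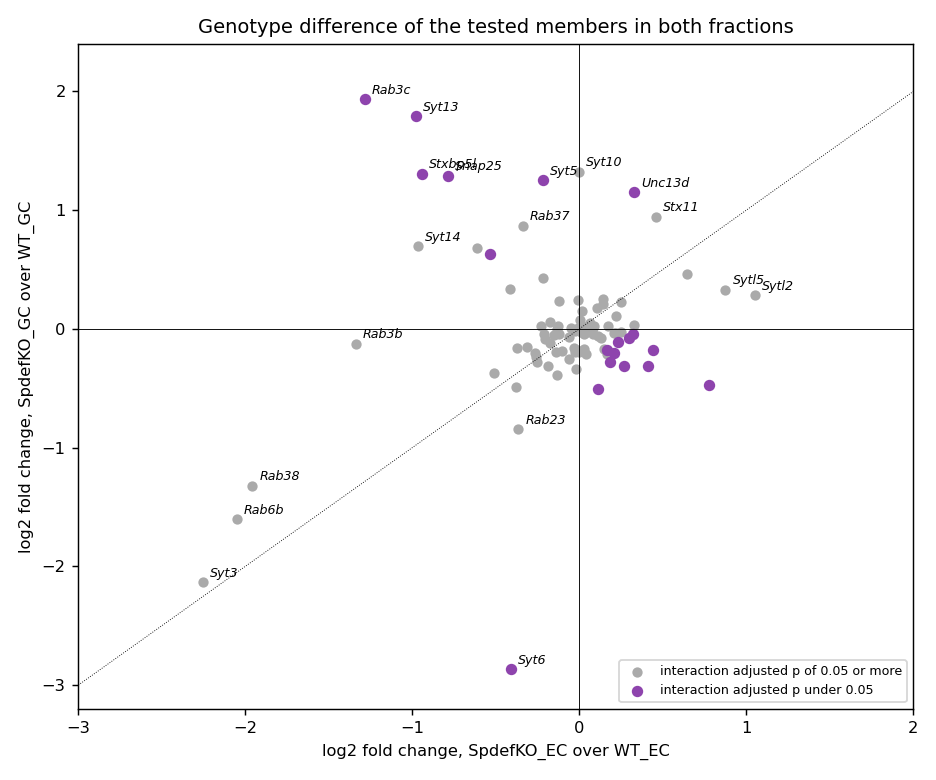
Log2 fold change with the SpdefKO label in the GC fraction (y axis) against that in the EC fraction (x axis) for the tested members reported here; the dotted line marks equal change and purple marks members whose interaction passed. Rab3c, Syt13, Snap25 and Stxbp5l sit at upper left, Syt6 at the bottom and Rab38 and Syt3 at lower left.

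Unc13d rose with the SpdefKO label in the GC fraction. It was at 16.6, 18.2, 13.2 and 16.4 CPM in SpdefKO_GC, above every WT_GC library (2.22-fold, log2 difference 1.15 ± 0.12, adjusted p = 1.97e-06). In the EC fraction it stood at 22.97, 21.9, 22.5 and 22.5 CPM in SpdefKO_EC (log2 difference 0.33 ± 0.11, adjusted p = 0.0625; passed with DESeq2, 0.0424, and limma-voom, 0.0462), and the genotype difference was larger in the GC fraction (interaction log2 difference 0.82 ± 0.16, adjusted p = 0.00386). Rab37 was at 5.34, 5.28, 6.57 and 7.39 CPM in SpdefKO_GC (log2 difference 0.87 ± 0.20, adjusted p = 0.00521) and Syt10 went from 47 counts in WT_GC to 117 (log2 difference 1.32 ± 0.36, adjusted p = 0.0124). Stxbp5 (tomosyn), a brake on SNARE assembly, had 49.9, 52.6, 52.8 and 51.2 CPM in WT_GC, against 58.0, 66.3, 60.4 and 59.2 with the SpdefKO label (log2 difference 0.24 ± 0.06, adjusted p = 0.00826). Stx17 was at 100.4, 110.4, 98.3 and 109 CPM (log2 difference 0.25 ± 0.08, adjusted p = 0.0375), without overlap; that call was lost without WT_GC 9, 11 or 18 or SpdefKO_GC 5 or 19, with upper-quartile factors and without the filter (adjusted p 0.0513–0.0904).

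Rab3c, Syt13, Snap25, Stxbp5l, Unc13a and Syt5, known from neurons and endocrine cells, rose in SpdefKO_GC. The first 4 fell in SpdefKO_EC, and Unc13a and Syt5 did not pass there. Not all members of this kind rose in SpdefKO_GC. Stx1a, the neuronal and endocrine syntaxin, and the synaptic Vamp2 did not pass, and Syt3 of synaptic and endosomal membranes fell in both fractions. Rab3c (chromosome 13, 110054187–110280996) had 0.533, 1.28, 0.572 and 0.534 CPM in WT_GC, against 2.58, 3.62, 2.90 and 2.63 with the SpdefKO label (3.83-fold, log2 difference 1.94 ± 0.28, adjusted p = 7.67e-05). In the EC fraction it was at 4.82, 3.79, 6.89 and 5.21 CPM in WT_EC and 2.42, 1.70, 2.27 and 2.09 CPM in SpdefKO_EC (log2 difference -1.28 ± 0.23, adjusted p = 0.00164). The libraries overlapped in neither fraction, and the interaction was 3.22 ± 0.36 (adjusted p = 1.37e-05). Rab3c was thus 6.78-fold apart between the WT fractions, while between SpdefKO_GC and SpdefKO_EC the difference did not pass (log2 difference 0.46 ± 0.24, adjusted p = 0.116).

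Syt13, an atypical synaptotagmin that does not bind calcium, had 0.866, 0.949, 0.763 and 0.623 CPM in WT_GC, against 2.18, 3.41, 3.32 and 2.49 with the SpdefKO label (log2 difference 1.79 ± 0.32, adjusted p = 0.000588). Its EC libraries went from 3.36, 3.56, 4.64 and 3.96 CPM to 2.49, 1.57, 2.86 and 0.626 CPM (log2 difference -0.98 ± 0.28, adjusted p = 0.0255), a call lost without WT_EC 14 (adjusted p = 0.0615) or 17 (0.059) and with only the compared groups in the fit (0.0694). Snap25, the neuronal SNAP, had 0.5996, 0.447, 0.445 and 0.534 CPM in WT_GC, against 0.918, 1.18, 1.13 and 1.78 with the SpdefKO label (log2 difference 1.29 ± 0.34, adjusted p = 0.0113). In the EC fraction it was at 2.60, 4.11, 4.35 and 4.33 and 2.36, 2.68, 1.23 and 2.71 CPM, with overlap (log2 difference -0.79 ± 0.24, adjusted p = 0.0399). Leaving out WT_EC 12, 14 or 17 or SpdefKO_EC 4 or 8 ended that call (adjusted p 0.0752–0.117), as did fitting only the compared groups (0.0792). Stxbp5l, a tomosyn relative, had 0.266, 0.558, 0.572 and 0.356 CPM in WT_GC, against 0.861, 1.67, 0.566 and 1.42 with the SpdefKO label (log2 difference 1.31 ± 0.40, adjusted p = 0.0264), a call lost without WT_GC 9 or 18 or SpdefKO_GC 5 or 19 (adjusted p 0.056–0.0884). Its EC difference (log2 difference -0.94 ± 0.30, adjusted p = 0.0484) was lost without any 1 of 7 libraries, all but SpdefKO_EC 6 (adjusted p 0.0548–0.128), and with only the compared groups (0.0577). The interactions of Syt13 (2.77 ± 0.42), Snap25 (2.08 ± 0.42) and Stxbp5l (2.25 ± 0.50) passed (adjusted p = 0.000372, 0.00407 and 0.00821).

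Syt5, a synaptotagmin of dense-core vesicles, had 0.333, 0.112, 0.191 and 0.445 CPM in WT_GC, against 0.803, 0.626, 0.495 and 0.498 with the SpdefKO label (log2 difference 1.25 ± 0.37, adjusted p = 0.0208). Leaving out WT_GC 11 (adjusted p = 0.0964), 13 (0.0661) or SpdefKO_GC 3 (0.0774) ended it. Unc13a, the neuronal Munc13-1, went from 1.05 ± 0.179 to 1.64 ± 0.268 CPM (log2 difference 0.63 ± 0.22, adjusted p = 0.0468) and passed in only 2 of 13 alternatives, those without WT_GC 11 and without SpdefKO_GC 19 (adjusted p 0.0393–0.143 over all 13). Both genes were close to 1 CPM or below in the GC fraction.

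Enteroendocrine markers moved with this set. The summed CPM of 18 such markers, all detected in each group, was 609–828 in WT_EC, 127–165 in WT_GC, 274–455 in SpdefKO_EC and 244–367 in SpdefKO_GC. Of 17 tested, 14 were higher and 1 lower in SpdefKO_GC than in WT_GC, 11 were lower in SpdefKO_EC than in WT_EC, and 15 had a positive interaction. Chgb, the granin of endocrine granules, was at 47.4 ± 8.56 CPM in WT_GC, against 132 ± 20.5 in SpdefKO_GC. Markers of enteric neurons and glia summed to 0.953–1.69 CPM in WT_GC, against 1.55–3.62 in SpdefKO_GC, with overlap (0 of 2 tested higher, S100b at 0 in SpdefKO_GC). Absorptive markers were also higher in SpdefKO_GC (7 of 10). Immune markers summed to 7.18–8.99 CPM in WT_GC, against 9.61–14.3 in SpdefKO_GC (2 of 6 tested higher, Cpa3 at 0 in SpdefKO_GC), stromal markers to 2.73–3.57 and 8.20–11.4 CPM (1 of 3 higher), and proliferation markers to 854–1203 and 1274–2066 CPM (2 of 8 higher). The part of other cell types in these differences was not tested.

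**Figure D4:**
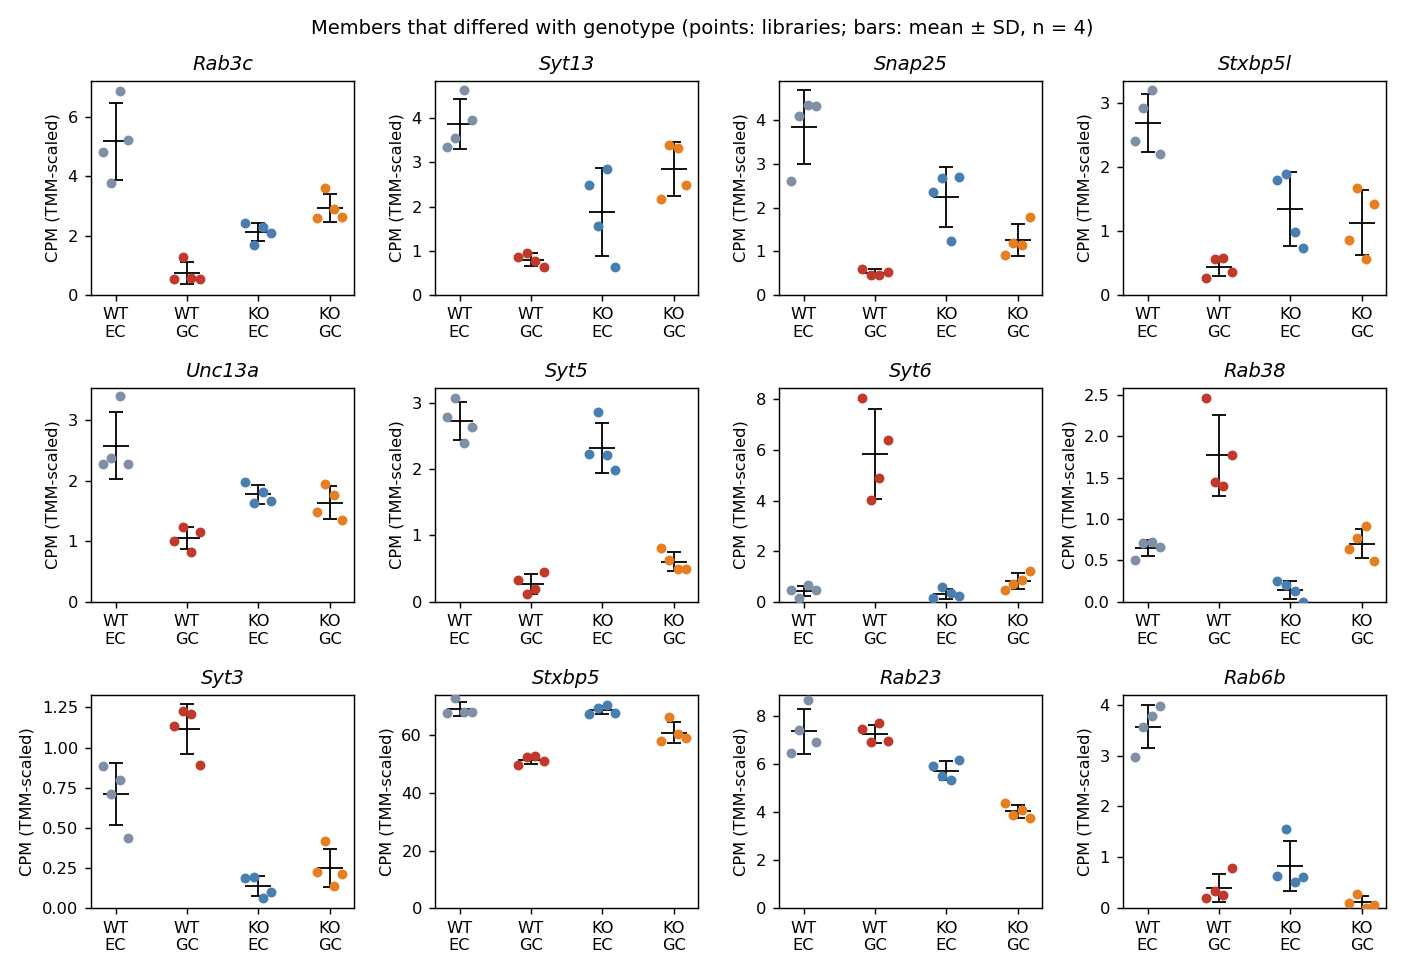
TMM-scaled CPM (y axis, from 0) of 12 members that differed with genotype in at least 1 fraction, by group (x axis; KO is the SpdefKO label). Points are libraries and bars the mean ± SD of 4; Rab3c, Syt13, Snap25 and Stxbp5l run high in WT_EC and low in WT_GC, and lie closer together in the SpdefKO fractions.

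Between the fractions of the SpdefKO label, 30 members were higher (background 28%) and 45 lower (background 28.4%; 56.4% in either direction) in SpdefKO_GC than in SpdefKO_EC, with a median of -0.21 against 0.03 over all genes. Libraries did not overlap for 29 higher and 40 lower members (background 23.5% and 24.5%). Of all genes called, 49.7% were higher, and 60.9% with upper-quartile factors. The members then split into 33 higher and 38 lower. Granule Rabs again held 6 higher of 7 tested, and Sytl genes 3 higher and 1 lower of 4. Sytl2 was at 19.3, 11.9, 27.9 and 20.4 CPM in SpdefKO_EC and 428, 612, 514 and 532 CPM in SpdefKO_GC, 26.2-fold higher (log2 difference 4.71 ± 0.19, adjusted p = 1.29e-12). Rab27a was 12.1-fold higher (log2 difference 3.60 ± 0.10, adjusted p = 1.80e-15), Syt7 9.66-fold (log2 difference 3.27 ± 0.17, adjusted p = 2.56e-11) and Rab3d 3.04-fold (log2 difference 1.60 ± 0.08, adjusted p = 1.97e-12). Exocyst genes had 1 higher and 6 lower of 11 tested. The libraries of these groups also enter the comparisons between genotypes.

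In the EC fraction the SpdefKO label went with 10 higher members (background 6.09%) and 9 lower (background 6.54%; 12.6% in either direction), that is 10.4% and 9.38%, with a median of -0.01 against 0.01 over all genes. With upper-quartile factors the split was 8 higher and 13 lower (38.1% of calls higher, against 52.6%), and over all genes 33.1% of calls were higher, against 48.3%. Libraries did not overlap for 12 higher and 13 lower members (background 6.94% and 8.38%). With only the compared groups in the fit 3 members were lower, and without WT_EC 12 or 17 or SpdefKO_EC 4 the number higher was 6. Without WT_EC 17 the number lower was 5. Sytl2 was at 9.32, 9.40, 8.9996 and 10.6 CPM in WT_EC and 19.3, 11.9, 27.9 and 20.4 CPM in SpdefKO_EC (log2 difference 1.05 ± 0.19, adjusted p = 0.00231). Rab27b was at 54.1, 52.2, 63.1 and 48.2 and 71.1, 68.6, 69.6 and 81.2 CPM (log2 difference 0.41 ± 0.09, adjusted p = 0.00442), and its libraries did not overlap. Beside them, goblet markers summed to 550–737 CPM in WT_EC and 511–555 CPM in SpdefKO_EC, with 4 of 10 lower and 0 higher. Their part in the Sytl2 and Rab27b differences was not tested. Stx19 was at 5.61, 5.16, 5.13 and 4.90 CPM in SpdefKO_EC (log2 difference 0.77 ± 0.21, adjusted p = 0.0205), lost without WT_EC 10 or 12 or SpdefKO_EC 4 (adjusted p 0.0581–0.0676). Rab32 was at 27.1, 28.6, 30.3 and 35.7 CPM (log2 difference 0.44 ± 0.11, adjusted p = 0.0167), lost without WT_EC 17 (adjusted p = 0.0628) or SpdefKO_EC 20 (0.0534). The early secretory Rabs Rab1, Rab1b and Rab2a also rose, a call that Rab1 lost with only the compared groups and without WT_EC 12 or 17 or SpdefKO_EC 4 or 8 (adjusted p 0.0519–0.0746). Rab2a, named after its values were seen, was at 176 ± 11.4 and 217 ± 17.2 CPM (log2 difference 0.30 ± 0.07, adjusted p = 0.00740). Rab6b fell from 2.98, 3.56, 3.77 and 3.96 to 0.638, 1.57, 0.520 and 0.626 CPM (log2 difference -2.05 ± 0.34, adjusted p = 0.000865). Beside it, tuft markers summed to 35.7–71.0 CPM in WT_EC and 8.86–15.1 CPM in SpdefKO_EC, with 4 of 6 tested lower. In WT_GC, where Rab6b was also low, tuft markers summed to 34.6–46.0 CPM. Enteroendocrine markers summed to 609–828 CPM in WT_EC, 274–455 in SpdefKO_EC and 127–165 in WT_GC, with 11 of 17 tested lower in SpdefKO_EC. The part of either cell type in the Rab6b difference was not tested.

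The genotype difference in the GC fraction departed from that in the EC fraction for 19 members. Of these, 7 had a positive interaction (background 4.88%) and 12 a negative one (background 4.65%, and 9.53% in either direction). Without WT_EC 12 or 17 or WT_GC 18 the number negative was 7. The positive ones were Rab3c, Syt13, Snap25, Stxbp5l, Syt5, Unc13a and Unc13d. Rab27b rose in SpdefKO_EC and fell in SpdefKO_GC (interaction log2 difference -0.73 ± 0.12, adjusted p = 0.000739). Rab3d fell in SpdefKO_GC and did not pass in SpdefKO_EC, and the difference between fractions passed (log2 difference -0.62 ± 0.11, adjusted p = 0.00133). Rab1b rose in EC and fell in GC (interaction log2 difference -0.58 ± 0.09, adjusted p = 0.000585). Stx19 (log2 difference -1.25 ± 0.28, adjusted p = 0.00789) and Rab32 (log2 difference -0.62 ± 0.16, adjusted p = 0.0207) were also negative. The interaction of Syt6 (log2 difference -2.46 ± 0.67, adjusted p = 0.0264) was lost without WT_EC 12 (adjusted p = 0.051) or SpdefKO_EC 6 (0.118) or 8 (0.0526), and that of Rab32 without WT_EC 17 (0.0509). That of Syt5 (log2 difference 1.47 ± 0.42, adjusted p = 0.0344) was lost without any 1 of 9 of the 16 libraries, with DESeq2 (0.0525) and without the filter (0.0665). For Syt5 the lowest and highest adjusted p over the 20 alternatives were 0.02 and 0.0904.

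Neighbouring lists differed with genotype as follows. Over all genes tested, 10.4% were higher and 11% lower in SpdefKO_GC than in WT_GC, and no list was tested as a set. Of 24 other SNAREs and recycling factors 7 fell in SpdefKO_GC, and the list's median was -0.13. Among them were Use1 (73.2 ± 3.06 to 58.1 ± 5.27 CPM, log2 difference -0.33 ± 0.08, adjusted p = 0.00915) and Napb (4.35 ± 0.797 to 2.86 ± 0.394 CPM, log2 difference -0.60 ± 0.17, adjusted p = 0.0174; lost without WT_GC 11, 0.0925, or SpdefKO_GC 5, 0.0536). Of 34 Rab regulators and effectors 5 rose and 3 fell. Myrip fell from 8.34 ± 1.51 to 4.41 ± 1.143 CPM (log2 difference -0.91 ± 0.20, adjusted p = 0.00315), and Myo5a, a myosin that carries Rab27 granules in other cells, rose from 3.21 ± 0.481 to 5.90 ± 0.872 CPM (log2 difference 0.89 ± 0.18, adjusted p = 0.00155). Of 18 calcium and priming factors 4 rose and 2 fell: the vesicle glycoprotein Sv2c rose from 5.35 ± 0.962 to 21.4 ± 11.3 CPM (log2 difference 2.01 ± 0.30, adjusted p = 0.000207) and Syngr2 fell from 300.1 ± 11.2 to 218 ± 18.4 CPM (log2 difference -0.46 ± 0.07, adjusted p = 0.000213).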

How the data were processed

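Raw read counts per gene were deposited by the authors as 1 table of 16 libraries. Per the labels' protocols, libraries were stranded total RNA depleted of ribosomal RNA. Tools listed in the submitters' processing notes are STAR 2.4.0f, HTSeq 0.6.1p1, FastQC 0.11.2 and DESeq2 1.14, with the build mm10 and no roles. How strand was handled in counting, and which annotation served, is stated in none of them. Another deposited table was not used. Rows naming no gene held 47.1–54.7% of counts and were left out.

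Counts were fitted with edgeR 4.0.16 (R 4.3.3, limma 3.58.1) by the quasi-likelihood test with TMM factors over all 4 groups; 12915 genes passed the filter on low counts, the common dispersion was 0.0137 (biological coefficient of variation 11.7%), and p-values were Benjamini-Hochberg adjusted over all of them. The standard error is the log2 difference over the root of F. The script was tested on simulated data. Alternatives were DESeq2 1.42.0, limma-voom, upper-quartile factors, no filter, only the compared groups, and each library left out.

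Named members are a textbook list of 22 plus the largest changes (up to 8 per direction in WT_GC vs WT_EC and SpdefKO_GC vs WT_GC, 4 elsewhere; adjusted p below 0.05 and at least 2 CPM in the higher group), 37 in all, not all of which are reported here; up to 2 genes per direction were named from each pathway list. Though the symbol rule reads no value, the gene set and the lists were proposed with earlier results of these data known. Whether each library is its own mouse is not labelled; p-values therefore reflect only the spread between libraries. Positions and promoters are from RefSeq, GRCm38.p6. Exon lengths are the union of all exons that GENCODE lists for a gene. Levels and shares per kilobase are thus too low for a gene whose listed exons are partly unused, and exon use was not tested.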

Additional observations from a re-analysis of the deposited data

Results flagged for a closer look

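Of 148 groups of 4 libraries checked over the 37 named members, 10 had a highest or lowest library set apart from the other 3; chance does this in about 1 in 20 groups. In WT_GC, library 11 was low for Rab3b (5.30 CPM, others 7.30–7.59) and high for Rab3c (1.28 CPM, others 0.533–0.572), and library 9 was low for Unc13d (5.60 CPM, others 7.65–7.98). In WT_EC, library 10 was low for Snap25 (2.60 CPM, others 4.11–4.35), library 17 low for Rab32 (18.6 CPM, others 23.3–24.1) and library 12 high for Stxbp5 (73.0 CPM, others 67.8–68.2) and at 0 for Rab26 (others 0.0634–0.0734 CPM), a gene of 3 counts in that group. In SpdefKO_GC, library 19 was high for Rab27b (218 CPM, others 184–187) and library 7 low for Vamp8 (64.2 CPM, others 73.2–74.9). In SpdefKO_EC, library 6 was high for Rab6b (1.57 CPM, others 0.520–0.638).

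The genotype difference was unlike in the 2 fractions, by the interaction term of edgeR, for 12 named members. The log2 interaction, GC minus EC, was 3.22 ± 0.36 for Rab3c, 2.77 ± 0.42 for Syt13, 2.25 ± 0.50 for Stxbp5l and 2.08 ± 0.42 for Snap25. It was 1.47 ± 0.42 for Syt5 and 0.82 ± 0.16 for Unc13d. The negative values were -2.46 ± 0.67 for Syt6, -1.25 ± 0.28 for Stx19, -0.73 ± 0.12 for Rab27b, -0.62 ± 0.11 for Rab3d, -0.62 ± 0.16 for Rab32 and -0.58 ± 0.09 for Rab1b (± standard error).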

How the results depend on the processing

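For 141 gene results, the tests given with values in the text and those of the naming rule, 1932 alternative values were computed. Of these, 1815 kept direction and side of the threshold, 87 (of 17 results) lost the call, 13 gained it and 17 reversed. The reversed values belong to differences that were not called. Stxbp2 in WT_GC against WT_EC became -0.012 with DESeq2 and -0.018 with only the compared groups, and ran from -0.037 to 0.035 with 1 library left out (negative without WT_EC 10 or 14 or WT_GC 11 or 18). In SpdefKO_GC against WT_GC, Vamp8 became -0.010 with upper-quartile factors and -0.0039 without the filter, and Stx3 became -0.0036 with upper-quartile factors. With 1 library left out, Vamp8 ran from -0.016 to 0.064 (negative without WT_GC 9 or SpdefKO_GC 5), Vamp2 from -0.19 to 0.0086 (positive without WT_GC 9), Stx3 from -0.030 to 0.052 (negative without WT_GC 13) and Stx1a from -0.090 to 0.15 (negative without WT_GC 13 or SpdefKO_GC 3). The interaction of Syt3 ran from -0.21 to 0.33 (negative without SpdefKO_EC 8 or SpdefKO_GC 5). With only the compared groups, 3 members (9 with all groups) were lower and 470 genes (787) higher in SpdefKO_EC than in WT_EC. Upper-quartile factors shifted the median of all genes by 0.114 (log2) in SpdefKO_GC against SpdefKO_EC.

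Leaving out 1 library at a time gave 29–31 members higher and 39–42 lower in WT_GC than in WT_EC, 8–11 and 9–14 in SpdefKO_GC against WT_GC, 28–30 and 43–46 in SpdefKO_GC against SpdefKO_EC, 6–15 and 5–10 in SpdefKO_EC against WT_EC, and 6–8 positive and 7–15 negative interactions. Over all genes, SpdefKO_EC against WT_EC gave 380–1183 higher and 560–1070 lower, and the interaction 459–797 positive and 387–718 negative. In SpdefKO_EC against WT_EC, 469 genes were higher without WT_EC 10, 438 without WT_EC 17, 380 without SpdefKO_EC 4 and 1183 without SpdefKO_EC 6, and 560 were lower without SpdefKO_EC 4. The interaction was negative for 394 genes without WT_EC 12, 388 without WT_EC 17 and 387 without SpdefKO_EC 4. The cause was not tested. No paired analysis was made. The groups share no library numbers, but each GC library number is next to an EC library number of the same genotype. Whether such neighbours came from the same mouse is not labelled and was not tested. The comparisons of fractions and the interaction therefore treat all libraries as unpaired. Members near 1 CPM rest on few reads, and 20 members were too low to test.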
